A study of Mus musculus with 18 samples.

Results

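Immediate early genes are induced within minutes when a signal reaches the nucleus through the MAP kinase pathways, and they need no new protein to be switched on. Several of them encode subunits of AP-1, a dimeric transcription factor made of a Jun protein with a Fos, Jun or ATF partner. In macrophages they are known as early targets of growth factors, bacterial products and other stress, and their mRNAs are short lived. The genes described here are 10 of the 31053 genes in the count table, chosen by name with earlier results of these data known. They are the Fos family genes *Fos* and *Fosl2*, the Jun family genes *Jun*, *Junb* and *Jund*, the zinc finger factors *Egr1* and *Egr2*, the stress-induced ATF family member *Atf3*, the nuclear protein gene *Ier2*, and *Dusp1*, which encodes a phosphatase that inactivates MAP kinases. All 10 passed the filter on low counts.

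RNA-Seq was performed on BM-derived macrophages (macrophages grown from bone marrow cells) of 6 C57Bl/6J mice aged 12 weeks, of which 3 carried a myeloid deletion of *Slc7a7* (Slc7a7-/-, knockout, KO) and 3 did not (Slc7a7+/+, wild type, WT). *Slc7a7* encodes the light chain of a transporter that exchanges cationic for neutral amino acids. In the knockout, LysM-Cre deletes the floxed gene, and this Cre is expressed from the lysozyme locus in myeloid cells. Marrow cells were cultured for 7 days with 50 ng/mL of recombinant M-CSF or with 30% L-cell conditioned medium, and 100000 cells were seeded per well. For 24 h, cells of each mouse then received PBS vehicle (Control), AcLDL (acetylated LDL, Ac-LDL) at 50 μg/mL or OxLDL (oxidized LDL, Ox-LDL) at 100 μg/mL, which gave 18 libraries in 6 groups of 3. Mice are numbered 1 to 3 within a genotype, and values are listed below in that order. A number shared by a WT and a KO mouse links no animals.

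Total counts per library ranged from 1043492 to 1768816. Levels are given as CPM, in which the counts of a gene are divided by the TMM-adjusted total of its library, and at this depth 3 counts corresponded to between 1.67 and 2.85 CPM. Macrophage markers (*Adgre1*, *Csf1r*, *Cd68* and 4 others) summed to between 3414 and 7136 CPM in each library. In KO cells this sum was 5955 to 7136 CPM in control, 5105 to 5715 CPM with Ac-LDL and 4110 to 5041 CPM with Ox-LDL, without overlap, and in WT cells it was 4299 to 7021, 4200 to 5552 and 3414 to 5580 CPM, with overlap. Stromal, dendritic, lymphoid and erythroid markers summed to at most 35.8, 4.63, 1.24 and 2.19 CPM, with *Cd79a* and *Nkg7* at 0 in all 18 libraries. Neutrophil granule genes summed to between 142 and 252 CPM in WT cells with Ox-LDL, against 72.9 to 126 CPM in WT control and 62.9 to 114 CPM in KO cells with Ox-LDL, while *Ly6g* was at 0 in all libraries. With Ac-LDL they summed to between 78.9 and 216 CPM in WT and 25.6 and 64.6 CPM in KO cells, without overlap, and in KO control to between 52 and 140.5 CPM. The part of either marker list in the results below was not tested. *Slc7a7* itself was lower in KO than in WT cells in each medium, at 6.58 ± 3.20 CPM (SD, n = 3) against 14.9 ± 5.41 CPM (SD, n = 3) in control, where counts are per gene and do not set deleted exons apart. All WT libraries were numbered before all KO libraries, so an effect of processing order cannot be told apart from genotype. In bulk samples, a smaller share of cells that express a gene and less RNA per cell cannot be told apart.

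The genomic position and the sequence just upstream of the start site are given first for the 5 genes that passed the test with Ox-LDL. *Jun* (ENSMUSG00000052684) is a gene of 1 exon on the minus strand of chromosome 4 of GRCm38, from 95049034 to 95052222. *Junb* (ENSMUSG00000052837) lies on the minus strand of chromosome 8 from 84974484 to 84978718, and *Fos* (ENSMUSG00000021250) on the plus strand of chromosome 12 from 85473890 to 85477273, with up to 4 exons. *Egr2* (ENSMUSG00000037868) lies on the plus strand of chromosome 10 from 67535475 to 67542188. *Atf3* (ENSMUSG00000026628) lies on the minus strand of chromosome 1 from 191170296 to 191218039. *Jun*, *Junb*, *Jund*, *Atf3* and *Dusp1* overlap genes annotated on the other strand, among them *Junos* at *Jun*, *Prdx2* at *Junb* and *Ergic1* at *Dusp1*. *Dusp1* also overlaps AC122252.1 and AC122252.4 on its own strand, which counting by strand would not set apart. The sources used here do not state whether the counting used strand, so reads from overlapping genes may have been shared. At most 0.41% of the 31-base words of a member's transcripts occurred in transcripts of another gene, for *Egr2* with *Egr3*.

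RefSeq promoters (GRCm38.p6) of 8 of the 10 genes were used. Promoters of *Egr1* and *Ier2* were not searched, so whether they hold any of these elements was not tested. Each window of 300 bases was searched on both strands for the cAMP response element TGACGTCA, the AP-1 element TGANTCA, the looser form TGACNTNA that contains the first, TATAAA and the CArG box bound by serum response factor. Of all 32851 promoters of this length, 1.79% held TGACGTCA, 7.81% TGANTCA, 16.3% TGACNTNA, 13.6% TATAAA and 1.63% a CArG box. The 150 bases before to 10 bases after the annotated start are printed below, 5′ to 3′ on the gene's own strand, with the matches in capitals. They are shown because these genes share early induction in textbook accounts yet moved in opposite directions here, and the printed letters let the elements be compared. *Jun* is chr4:95052213-95052372, *Atf3* chr1:191183324-191183483, *Fos* chr12:85473740-85473899, *Junb* chr8:84978739-84978898 and *Egr2*, 1 of 5 annotated starts, chr10:67537719-67537878.
Jun: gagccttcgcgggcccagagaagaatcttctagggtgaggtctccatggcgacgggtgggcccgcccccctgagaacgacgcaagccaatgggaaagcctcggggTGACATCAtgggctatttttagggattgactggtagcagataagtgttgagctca
Atf3: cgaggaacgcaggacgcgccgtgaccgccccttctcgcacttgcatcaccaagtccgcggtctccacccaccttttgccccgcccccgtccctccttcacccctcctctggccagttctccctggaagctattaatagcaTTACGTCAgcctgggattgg
Fos: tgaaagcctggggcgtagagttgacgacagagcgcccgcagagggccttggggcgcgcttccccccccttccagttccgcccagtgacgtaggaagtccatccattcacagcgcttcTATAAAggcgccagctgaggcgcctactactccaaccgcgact
Junb: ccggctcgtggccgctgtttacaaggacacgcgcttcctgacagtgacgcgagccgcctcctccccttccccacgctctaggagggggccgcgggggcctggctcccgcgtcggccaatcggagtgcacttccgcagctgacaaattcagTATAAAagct
Egr2: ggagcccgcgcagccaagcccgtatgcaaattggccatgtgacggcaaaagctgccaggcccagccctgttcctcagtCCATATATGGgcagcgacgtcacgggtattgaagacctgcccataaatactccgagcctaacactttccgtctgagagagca
The *Jun* and *Atf3* windows each held 1 match to the looser form, TGACATCA at positions -45 to -38 of *Jun* and TTACGTCA, which reads on the minus strand, at -10 to -3 of *Atf3*. The *Fos* window held TATAAA at -33 to -28 and the *Junb* window at 1 to 6 of its RefSeq start. The *Egr2* window held the CArG box CCATATATGG at -72 to -63. This start was chosen for printing after the matches were seen. Of the other 4 *Egr2* starts, the most upstream one (chr10:67535249-67535548) held no match, the next held CCTTTTTTGG, and the windows of the others overlap the one printed and held the same box. A further member, *Dusp1*, held TGACGTCA at -143 to -136 (chr17:26508423-26508722, minus strand). No window of the 8 genes held TGANTCA. The windows ran from 250 bases before to 50 bases after each start, and elements further away were not searched. Letters close to a form were not counted either. The printed *Fos* letters hold tgacgtag and those of *Egr2* hold cgacgtca, each close to the looser form without matching it. A gene without a match is therefore not shown to lack such an element. These matches describe the letters only and were not tested as binding sites.

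Levels of the 10 genes differed widely. Per kilobase of annotated exon, *Fos* lay between 30.9 and 103.7 CPM per kb over the 18 libraries, *Atf3* between 37.5 and 95.9, *Junb* between 37.7 and 83.0, *Jun* between 43.6 and 79.7 and *Jund* between 43.3 and 67.8 CPM per kb. These ranges, taken over all 6 groups, overlapped and give no rank within a group. In KO cells with Ox-LDL *Atf3* lay at 75.95 to 95.91 and *Junb* at 37.69 to 48.28 CPM per kb. In KO control *Junb* lay at 71.01 to 78.36 and *Jun* at 43.87 to 47.1 CPM per kb. *Dusp1* was at 10.3 to 35.7, *Ier2* at 10.8 to 20.99 and *Fosl2* at 5.12 to 9.03 CPM per kb. *Egr2* (0.384 to 4.74) and *Egr1* (0.153 to 1.60 CPM per kb) were close to the limit of detection, with 2 to 26 counts and 1 to 11 counts per library. Differences in *Egr1* were therefore hardly detectable at this depth.

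**Figure D1:**
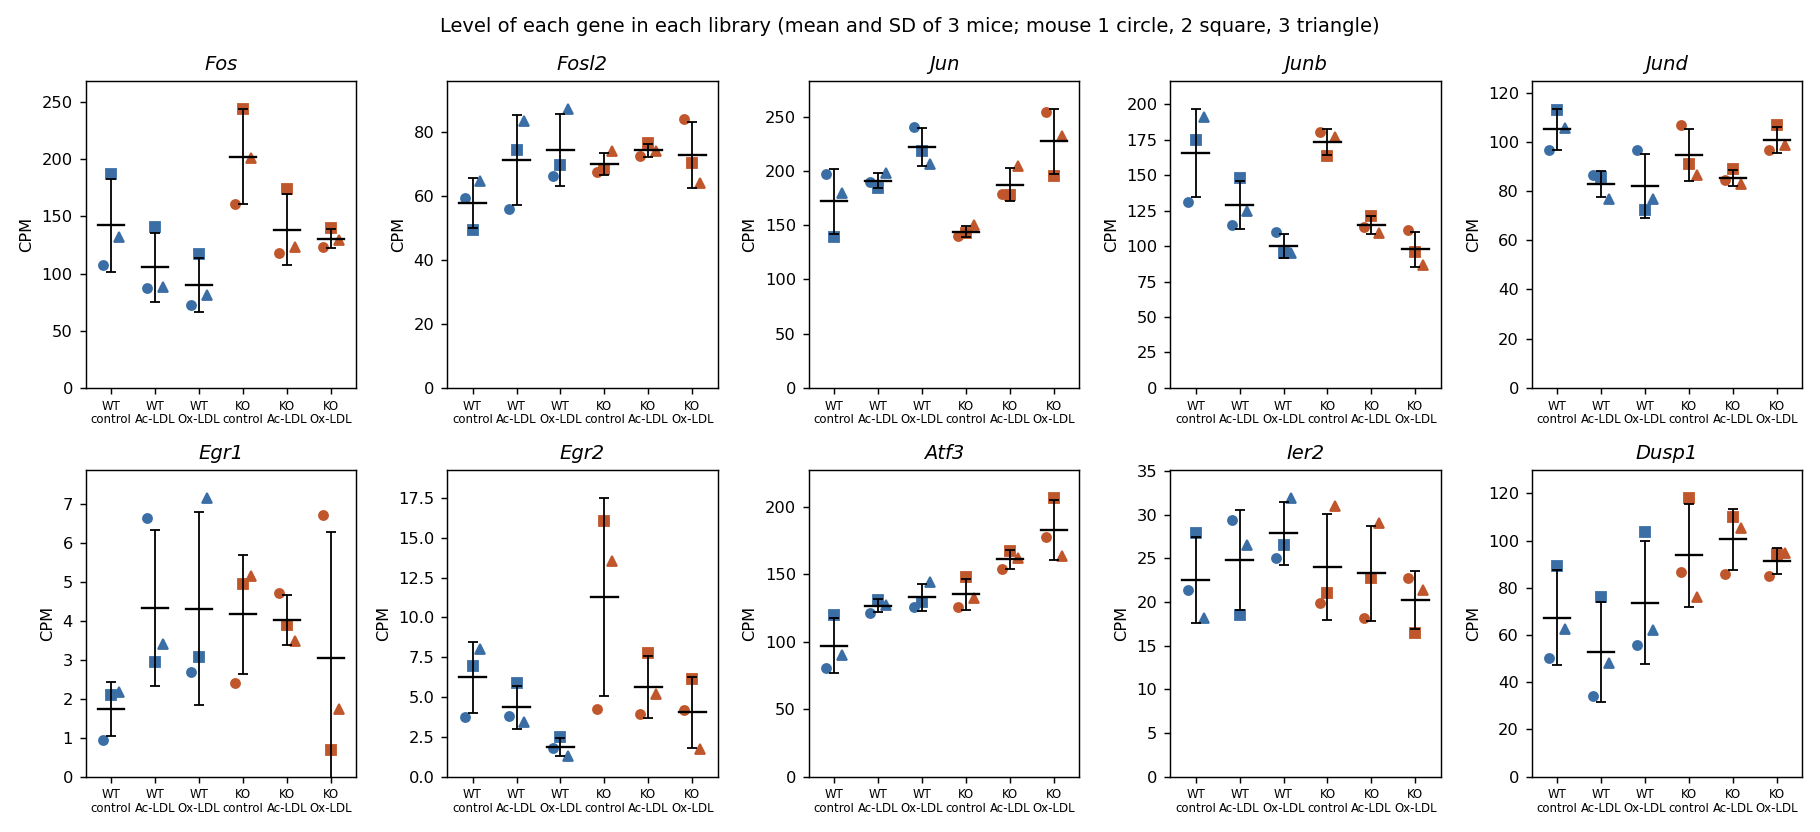
CPM (vertical axis, from 0) of the 10 genes in the 18 libraries, by genotype and medium (horizontal axis). Blue points are WT and orange points KO libraries, with 1 symbol per mouse number, bars are the mean and SD of 3 mice, and the lower bar of *Egr1* in KO with Ox-LDL is cut at 0. *Junb* lies lower and *Jun* higher with Ox-LDL than in control in both genotypes, and *Atf3* lies higher in KO than in WT in each medium.

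The first question was how the 10 genes differed between macrophages loaded with Ox-LDL and control macrophages. Averaged over both genotypes (6 mice), *Jun* and *Atf3* rose and *Fos*, *Junb* and *Egr2* fell. These 5 of the 10 genes stand beside 662 of 12290 genes tested, or 5.39%, called by the same edgeR quasi-likelihood test with Benjamini-Hochberg adjustment. The 10 genes were chosen with earlier results of these data known, so these shares are set side by side only as a description. The median log2 fold change of the 10 was 0.04 and that of all genes tested was 0.01. The other 5, *Fosl2*, *Jund*, *Egr1*, *Ier2* and *Dusp1*, did not pass. The members thus moved in both directions, and the signs differed within the Jun family.

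*Junb* encodes the Jun protein that is the weaker activator in many assays and can oppose c-Jun. In WT cells it was at 131, 175 and 191 CPM in control, 115, 148 and 125 CPM with Ac-LDL and 110.2, 95.1 and 95.2 CPM with Ox-LDL. In KO cells it was at 180.3, 163 and 177 CPM in control, 114, 122 and 109 CPM with Ac-LDL and 111, 95.8 and 86.7 CPM with Ox-LDL. Every library with Ox-LDL lay below every control library of both genotypes. Group means were 166 ± 31.1 CPM (SD, n = 3) in WT control and 100.2 ± 8.70 CPM (SD, n = 3) in WT with Ox-LDL, and 174 ± 8.99 CPM (SD, n = 3) and 97.9 ± 12.3 CPM (SD, n = 3) in KO. Over both genotypes *Junb* fell by 0.79 ± 0.10 on the log2 scale (SE; adjusted p = 1.23e-05), and it was lower in 6 of 6 mice, with changes from -1.02 to -0.25. It was the only member to pass in WT cells taken alone, with a log2 fold change of -0.74 ± 0.14 (SE; adjusted p = 0.00527) in edgeR's test, beside 165 of 12290 genes tested (1.34%). Without WT control mouse 3 that call was lost (log2 fold change -0.63, adjusted p = 0.056). In KO cells the log2 fold change was -0.83 ± 0.14 (SE; adjusted p = 0.00101).

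*Jun* encodes c-Jun, the partner of Fos in the classical AP-1 dimer. It was at 197, 139 and 180 CPM in WT control, 189.8, 185 and 199 CPM with Ac-LDL and 241, 218 and 206 CPM with Ox-LDL. In KO cells the values were 139.9, 142 and 150.2 CPM in control, 179, 178 and 205 CPM with Ac-LDL and 254, 195 and 232 CPM with Ox-LDL. With Ox-LDL all WT and all KO libraries lay above the control libraries of their own genotype, although KO mouse 2 with Ox-LDL lay just below WT mouse 1 in control. Over both genotypes the log2 fold change was 0.51 ± 0.09 (SE; adjusted p = 0.000965), with a rise in 6 of 6 mice from 0.19 to 0.86. In KO cells alone it was 0.66 ± 0.13 (SE; adjusted p = 0.00555), so that *Jun* and *Junb* were the 2 members called there, beside 285 of 12290 genes tested (2.32%). In WT cells alone it was 0.37 ± 0.13 (SE; adjusted p = 0.267) without a term for the mouse and 0.38 (adjusted p = 0.0315) with the mouse as a block. KO minus WT, this response differed by 0.29 ± 0.19 (SE; adjusted p = 1).

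Since *Jun* and *Junb* moved apart, the ratio of their counts was taken in each library, a measure chosen after their values were seen and given without a test. In control it was 1.504, 0.793 and 0.943 in WT and 0.776, 0.871 and 0.847 in KO mice. With Ox-LDL it was 2.19, 2.30 and 2.16 in WT and 2.29, 2.04 and 2.68 in KO mice. All 6 ratios with Ox-LDL lay above all 6 in control, and those with Ac-LDL, from 1.25 to 1.88, lay between except that WT mouse 1 in control exceeded some of them. The mean ratio went from 1.08 ± 0.375 (SD, n = 3) to 2.22 ± 0.0722 (SD, n = 3) in WT and from 0.832 ± 0.0496 (SD, n = 3) to 2.33 ± 0.325 (SD, n = 3) in KO cells. Among the counts of the 5 Fos and Jun family members, *Jun* made up 27.0% ± 6.19 (SD, n = 3) in WT control and 39.0% ± 1.82 (SD, n = 3) with Ox-LDL, and 21.1% ± 0.895 (SD, n = 3) and 36.0% ± 3.42 (SD, n = 3) in KO cells. The summed level of the 5 had group means between 568 and 685 CPM.

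**Figure D2:**
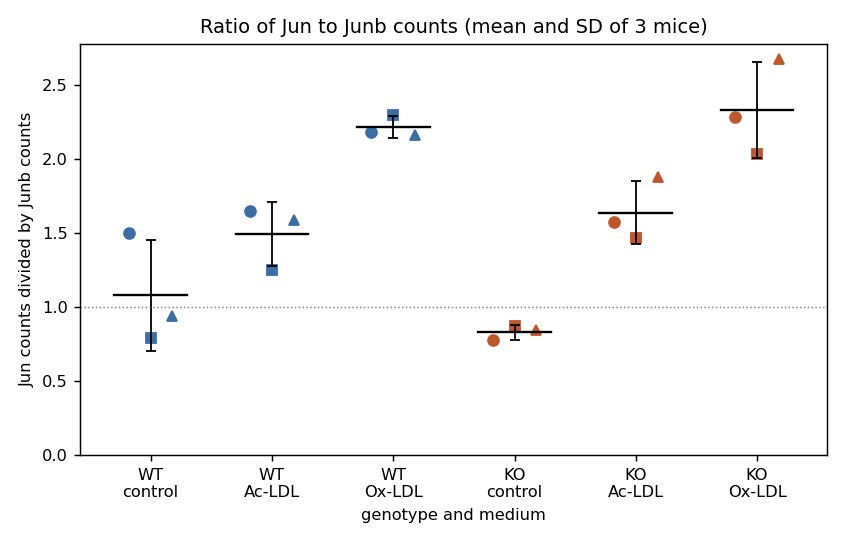
Counts of *Jun* divided by counts of *Junb* (vertical axis, from 0) in each library, by genotype and medium (horizontal axis). Points are mice, bars are the mean and SD of 3 mice, and the dotted line marks equal counts. The 6 libraries with Ox-LDL lie between 2.04 and 2.68 and the 6 control libraries between 0.776 and 1.504.

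*Fos* encodes c-Fos, which binds DNA as a dimer, classically with a Jun protein. It was at 108, 187 and 132 CPM in WT control, 87.3, 140.4 and 88.4 CPM with Ac-LDL and 72.6, 117 and 80.9 CPM with Ox-LDL. In KO cells it was at 161, 244 and 201 CPM in control, 118, 174 and 123 CPM with Ac-LDL and 123, 139.6 and 129 CPM with Ox-LDL. Mouse 2 had the highest level and mouse 1 the lowest in each of the 6 groups, so that WT libraries with Ox-LDL overlapped WT control libraries although each mouse went down. Over both genotypes *Fos* fell by 0.64 ± 0.15 on the log2 scale (SE; adjusted p = 0.0114) with Ox-LDL, and the changes within the 6 mice lay between -0.80 and -0.39. Without WT control mouse 2 the adjusted p was 0.0562, at a log2 fold change of -0.52. Within each genotype the test without the mouse did not pass (WT, -0.66, adjusted p = 0.218; KO, -0.63, adjusted p = 0.145). With the mouse as a block *Fos* was called in both, at -0.66 (adjusted p = 0.000185) in WT and -0.62 (adjusted p = 5.58e-05) in KO cells. With that block 4 members were called in WT and 5 in KO cells, beside 539 (4.39%) and 882 (7.18%) of all genes tested.

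The share of the spread within groups that lay between mice was 92.5% for *Fos* and 89.5% for *Dusp1*, against a median of 44.4% over all genes tested. These shares were higher than those of 99.2% and 98.1% of the genes tested. *Fosl2*, *Atf3*, *Egr2* and *Jun* lay between 46.2% and 53.7%, and *Ier2*, *Junb*, *Jund* and *Egr1* between 15.5% and 32.6%. The order of the mice for *Fos*, mouse 2 above 3 above 1, was the same in WT and KO cells, which come from different animals. Over all genes tested, libraries of the same number in the other genotype had correlations of deviations of at most 0.056. This value covers all genes and not *Fos* alone, and why its order was shared was not tested.

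*Egr2* encodes a zinc finger factor that takes part in macrophage differentiation. WT control libraries had 4, 10 and 11 counts, those with Ac-LDL 4, 8 and 5, and those with Ox-LDL 2, 4 and 2. KO control libraries had 7, 26 and 21 counts, those with Ac-LDL 5, 14 and 9, and those with Ox-LDL 5, 9 and 3. In WT cells each library with Ox-LDL lay below each control library in CPM, while in KO cells the groups overlapped because mouse 2 with Ox-LDL, at 6.16 CPM, lay above mouse 1 in control, at 4.22 CPM. Over both genotypes *Egr2* fell by 1.61 ± 0.40 on the log2 scale (SE; adjusted p = 0.0148), and the call was lost without KO control mouse 2 (-1.43, adjusted p = 0.0508). In KO cells alone it was -1.497 ± 0.49 (SE; adjusted p = 0.135), and -1.502 (adjusted p = 0.0396) with the mouse as a block. *Egr1*, the related early growth response gene on chromosome 18, had a log2 fold change of 0.36 ± 0.47 (SE; adjusted p = 0.783) with Ox-LDL, which turned to -0.20 without KO mouse 1 with Ox-LDL.

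*Atf3* encodes a stress-induced factor of the ATF family that is known to restrain inflammatory gene expression in macrophages. It was at 80.8, 120 and 90.4 CPM in WT control, 122, 131 and 127 CPM with Ac-LDL and 125, 129 and 144 CPM with Ox-LDL. In KO cells it was at 125, 148 and 132 CPM in control, 154, 167 and 162 CPM with Ac-LDL and 178, 207 and 164 CPM with Ox-LDL. Within each genotype the libraries with either LDL lay above the control libraries. Over both genotypes the log2 fold change with Ox-LDL was 0.44 ± 0.10 (SE; adjusted p = 0.006), with a rise in 6 of 6 mice from 0.10 to 0.66. Taken alone, WT cells (0.45, adjusted p = 0.164) and KO cells (0.43, adjusted p = 0.101) did not pass without the block, and both passed with it (adjusted p = 0.0206 and 0.00724).

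The other members did not pass with Ox-LDL in any of these fits. *Jund*, the most constitutively expressed Jun gene, was at 105 ± 8.27 CPM (SD, n = 3) in WT control and 82.0 ± 13.02 CPM (SD, n = 3) with Ox-LDL, and at 94.7 ± 10.7 CPM (SD, n = 3) and 101 ± 5.24 CPM (SD, n = 3) in KO cells. Its log2 fold change was -0.37 in WT and 0.09 in KO cells, and the difference between these had an unadjusted p of 0.0223 and an adjusted p of 1. *Fosl2*, which encodes the Fos protein Fra-2, had a log2 fold change of 0.21 ± 0.11 (SE; adjusted p = 0.375). *Ier2* was at 22.5 ± 4.95 CPM (SD, n = 3) in WT control and 27.9 ± 3.62 CPM (SD, n = 3) with Ox-LDL, with a log2 fold change over both genotypes of 0.03. *Dusp1* was at 67.4 ± 20.02 CPM (SD, n = 3) and 73.7 ± 26.1 CPM (SD, n = 3), with 0.05 over both genotypes. For *Ier2* and *Dusp1* the sign of this value changed with the library left out.

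**Figure D3:**
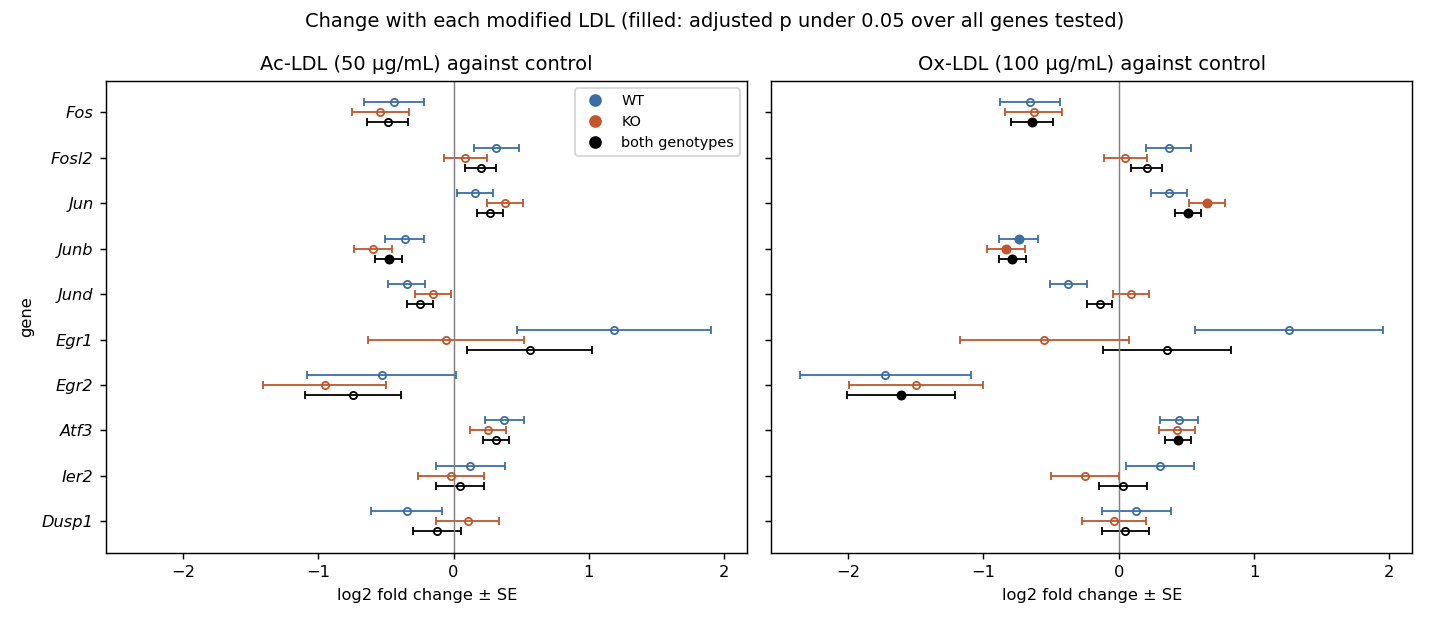
Log2 fold change ± SE (horizontal axis) of each gene (vertical axis) with Ac-LDL (left) and Ox-LDL (right) against control, in WT, KO and both genotypes together. Filled points passed an adjusted p of 0.05 over all genes tested. With Ox-LDL the filled points are *Junb* in all 3 comparisons, *Jun* in KO and in both genotypes, and *Fos*, *Egr2* and *Atf3* in both genotypes, and with Ac-LDL only *Junb* in both genotypes.

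The same comparison was made for Ac-LDL, given at 50 μg/mL where Ox-LDL was given at 100 μg/mL, so that no test was made between the 2 lipoproteins. Both were compared with the same control libraries. *Junb* alone was called over both genotypes, where it fell by 0.48 ± 0.10 on the log2 scale (SE; adjusted p = 0.00789), beside 246 of 12290 genes tested (2%). It was lower in 6 of 6 mice, from -0.69 to -0.19, and mean levels were 129 ± 16.9 CPM (SD, n = 3) in WT and 115 ± 6.39 CPM (SD, n = 3) in KO cells. No member was called in WT cells alone (58 of 12290 genes tested, 0.472%) or in KO cells alone (64, 0.521%), where 3 and 4 members had an unadjusted p under 0.05, beside 7.33% and 7.53% of all genes tested, and DESeq2 called 0 and 1. In KO cells *Junb* stood at -0.60 ± 0.14 (SE; adjusted p = 0.0512), for which DESeq2 gave an adjusted p of 0.0288.

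With the mouse as a block, 4 members were called with Ac-LDL over both genotypes, beside 719 genes (5.85%). *Fos* stood at -0.49 ± 0.15 (SE; adjusted p = 0.121) without the block and at -0.49 (adjusted p = 2.57e-05) with it, and was lower in 6 of 6 mice, from -0.70 to -0.30. *Jun* stood at 0.27 ± 0.10 (SE; adjusted p = 0.201) without and at 0.27 (adjusted p = 0.0229) with it, and was higher in 5 of 6 mice. *Atf3* stood at 0.31 ± 0.10 (SE; adjusted p = 0.12) without and at 0.31 (adjusted p = 0.0122) with it, and was higher in 6 of 6 mice, from 0.12 to 0.58. Within the genotypes the block called *Fos* in WT cells (-0.44, adjusted p = 0.0325), and *Fos* (-0.55, adjusted p = 0.00084), *Jun* (0.38, adjusted p = 0.046) and *Junb* (-0.59, adjusted p = 0.00165) in KO cells. *Jund* was lower in 6 of 6 mice, from -0.45 to -0.03, with a log2 fold change of -0.25 ± 0.10 (SE; adjusted p = 0.252), and *Egr2* stood at -0.74 ± 0.36 (SE; adjusted p = 0.42).

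**Figure D4:**
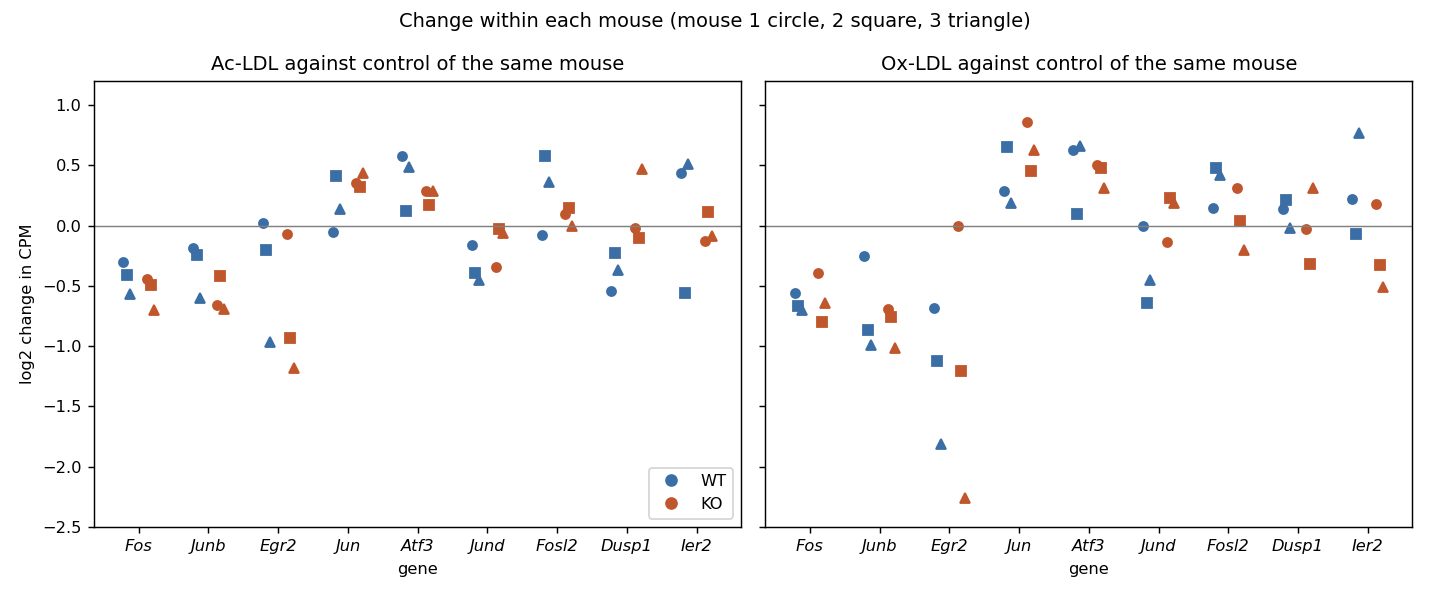
Log2 change in CPM (vertical axis) between each LDL and control of the same mouse for 9 of the genes (horizontal axis), with Ac-LDL on the left and Ox-LDL on the right. Blue points are WT and orange points KO mice, with 1 symbol per mouse number. *Fos* and *Junb* lie below 0 and *Atf3* above 0 in all 6 mice with either LDL, and *Jun* lies above 0 in all 6 with Ox-LDL.

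The next question was whether the loss of *Slc7a7* altered these genes. No member was called between KO and WT cells in control (1 of 12290 genes tested, 0.00814%), with Ac-LDL (2 genes, 0.0163%) or with Ox-LDL (1 gene, 0.00814%), nor with the counts of each mouse summed over the 3 media (1 of 12673 genes, 0.00789%). At an unadjusted p under 0.05 there were 2, 2, 3 and 4 members, all higher in KO cells, beside 4%, 4.89%, 4.78% and 4.13% of all genes tested. By edgeR, 0 members and 0% of all genes tested were called for a response to Ac-LDL that differed between KO and WT, and the same held for Ox-LDL. At an unadjusted p under 0.05 these were 327 and 338 genes, with 0 and 1 members, the 1 being *Jund*. DESeq2 called 1 gene for Ac-LDL and 0 for Ox-LDL, and 0 members in any comparison of the genotypes.

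Of the members, *Atf3* had the smallest p between the genotypes in control, with Ox-LDL and in the summed counts, and *Dusp1* with Ac-LDL. For *Atf3* the CPM listed above put each KO library above each WT library of the same medium, and the ratio of means, KO over WT, was 1.39 in control, 1.27 with Ac-LDL and 1.38 with Ox-LDL. The log2 fold changes were 0.47 ± 0.14 (SE; adjusted p = 1), 0.35 ± 0.14 (SE; adjusted p = 0.99) and 0.46 ± 0.14 (SE; adjusted p = 0.933) in edgeR's test. Summed per mouse, *Atf3* was at 119 ± 8.51 CPM (SD, n = 3 mice) in WT and 158 ± 12.5 CPM (SD, n = 3) in KO mice, a log2 fold change of 0.41 ± 0.11 (SE; adjusted p = 0.979). A fit that took the 18 libraries as independent gave an adjusted p of 0.0401, but the 3 libraries of a mouse are not separate animals.

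*Fos* had ratios of means of 1.42, 1.31 and 1.45 in the 3 media, with no overlap between KO and WT only with Ox-LDL. Summed per mouse it was at 112 ± 30.4 CPM (SD, n = 3) in WT and 158 ± 26.0 CPM (SD, n = 3) in KO mice, with overlapping ranges and a log2 fold change of 0.50 ± 0.18 (SE; adjusted p = 0.979). *Dusp1* was at 34.2, 76.1 and 48.3 CPM in WT and 85.9, 110 and 106 CPM in KO cells with Ac-LDL, where the groups did not overlap and where the summed neutrophil granule genes, given above, did not overlap either and were lower in KO cells. Its log2 fold change there was 0.91 ± 0.25 (SE; adjusted p = 0.82). In control *Dusp1* was at 50.1, 89.3 and 62.7 CPM in WT and 86.8, 118 and 76.1 CPM in KO cells, and these overlapped, as they did with Ox-LDL. With Ox-LDL the summed neutrophil granule genes, given above, were lower in KO cells without overlap as well. Their part in the *Dusp1* values was not tested. *Junb*, *Jun* and *Jund* had ratios of means between 0.839 and 1.23 in the 3 media. KO libraries also lay above WT libraries without overlap for *Jund* with Ox-LDL (ratio 1.23). The same held in control for *Fosl2* (1.21) and for *Egr1* (2.40, at 1 to 3 counts in WT and 4 to 8 in KO). In the other media these genes overlapped. The share of all genes without such overlap was not taken, so these separations are descriptions only. *Ier2* was lower in KO cells with Ox-LDL, at 22.7, 16.4 and 21.4 against 25.1, 26.5 and 31.9 CPM, with an adjusted p of 0.933.

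Over the 6 groups, the highest mean of a member was between 1.28 times (*Jund*) and 6.08 times (*Egr2*) the lowest. For *Fos* the order was KO control, WT control, KO Ac-LDL, KO Ox-LDL, WT Ac-LDL and WT Ox-LDL, and the libraries of all neighbours in this order overlapped. For *Atf3* it was KO Ox-LDL, KO Ac-LDL, KO control, WT Ox-LDL, WT Ac-LDL and WT control, and neighbours were apart only between KO Ac-LDL and KO control and between WT Ac-LDL and WT control. For *Jun* it was KO Ox-LDL, WT Ox-LDL, WT Ac-LDL, KO Ac-LDL, WT control and KO control, and only WT Ox-LDL and WT Ac-LDL were apart. For *Junb* it was KO control, WT control, WT Ac-LDL, KO Ac-LDL, WT Ox-LDL and KO Ox-LDL, and all neighbours overlapped. All neighbours overlapped as well for *Jund*, *Egr1*, *Egr2*, *Ier2* and *Dusp1*, and for *Fosl2* only KO control and WT control were apart.

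Other genes of these families were read from the same fits, in lists also chosen with earlier results of these data known. None of 11 other AP-1 and partner genes (*Fosb*, *Mafg* and others) was called in any comparison by edgeR or DESeq2, with at most 2 at an unadjusted p under 0.05. With Ox-LDL over both genotypes their median log2 fold change was 0.15, *Mafg* stood at 0.36 ± 0.11 (SE; adjusted p = 0.0571; 0.0107 with the mouse as a block), and *Fosb* had at most 5 counts in a library. With that block *Mafg* was the 1 gene of the list called there, beside 11.3% of all genes tested. *Jdp2* was the 1 called with Ac-LDL over both genotypes, beside 5.85%. Of 25 other immediate early genes tested of 28 listed, 2 fell with Ox-LDL over both genotypes, beside 662 of 12290 genes tested (5.39%). None was called elsewhere by edgeR or DESeq2, with at most 3 at an unadjusted p under 0.05. The 2 that fell were *Nab1*, a corepressor of Egr proteins, at -0.38 ± 0.08 (SE; adjusted p = 0.0056), and *Gadd45b*, a stress-induced gene, at -0.95 ± 0.26 (SE; adjusted p = 0.0277), both lower in 6 of 6 mice. With the mouse as a block, 6 of this list were called there, adding *Myc*, *Zfp36l1*, *Plk2* and *Rhob*, beside 1393 of all genes tested (11.3%). With Ac-LDL over both genotypes it called 3, *Myc*, *Nab1* and *Plk2*, beside 719 genes (5.85%). Within the genotypes it called *Plk2* in WT cells with either LDL, *Nab1* and *Rhob* in KO cells with Ox-LDL and none in KO cells with Ac-LDL. *Gadd45b* had 4 to 24 counts per library, and the call was lost with DESeq2 (adjusted p = 0.0666) and when some libraries were left out, with adjusted p of up to 0.133. *Dusp6*, a phosphatase that acts on ERK, was the 1 gene called of 9 other MAP kinase phosphatases, beside the shares of all genes given above. It was at 24.8 ± 6.39 CPM (SD, n = 3) in WT control, 49.1 ± 1.38 CPM (SD, n = 3) with Ac-LDL and 67.4 ± 13.6 CPM (SD, n = 3) with Ox-LDL, and at 21.3 ± 8.46, 39.9 ± 6.97 and 49.8 ± 9.38 CPM (SD, n = 3 each) in KO cells. Over both genotypes it rose by 0.96 ± 0.17 on the log2 scale with Ac-LDL (SE; adjusted p = 0.00214) and by 1.34 ± 0.17 with Ox-LDL (SE; adjusted p = 9.91e-06), in 6 of 6 mice each. *Dusp1*, of the same family, did not pass in either comparison. With the mouse as a block *Dusp4* was also called with Ac-LDL over both genotypes, beside 5.85% of all genes tested.

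Of 34 genes tested of 36 listed for the signalling upstream, *Mapkapk2* was the 1 gene called, and it fell with both LDLs in both genotypes. It encodes MK2, a kinase downstream of p38 that is known to stabilise short-lived mRNAs. Its level was 292 ± 34.2 CPM (SD, n = 3) in WT control, 193 ± 21.03 CPM (SD, n = 3) with Ac-LDL and 177 ± 3.62 CPM (SD, n = 3) with Ox-LDL. In KO cells it was 275 ± 2.81, 187 ± 17.3 and 150.3 ± 15.6 CPM (SD, n = 3 each). Ac-LDL gave a log2 fold change over both genotypes of -0.58 ± 0.09 (SE; adjusted p = 0.000242) and Ox-LDL of -0.80 ± 0.09 (SE; adjusted p = 1.13e-06), with a fall in 6 of 6 mice each. The median log2 fold change of the list with Ox-LDL over both genotypes was 0.016, where 5.39% of all genes tested were called. With the mouse as a block, 2 of the list were called with Ox-LDL over both genotypes, *Mapkapk2* and *Spred1*, beside 11.3% of all genes tested. The genes of these lists that are named for the block alone were chosen after their values were seen.

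The genes whose log2 CPM followed the mean centred profile of the 10 members most closely over the 18 libraries, among 9748 genes screened, were *Pcdh7* (Pearson r = 0.842), *Nabp1* (0.825), *Crybg1* (0.809), *Limd1* (0.789) and *Tet2* (0.783). These r are descriptions, since the 18 points share 6 mice and 6 groups. Taken on deviations from the group means, the r of these 5 genes lay between 0.661 and 0.811. The profile weights all members alike, so rises of *Jun* and *Atf3* offset falls of *Fos* and *Junb* in it. The low-count *Egr1* and *Egr2* had within-group SDs of log2 CPM of 0.57 and 0.54, against 0.13 for *Jund* and 0.17 for *Junb*. A high r therefore does not show that a gene followed any given member.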

How the data were processed

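RNA-Seq of BM-derived macrophages was analysed. As the paper's methods describe, the authors prepared stranded, single-end libraries, used the nf-core pipeline with Trim Galore and STAR (genome mm10) and quantified genes on Ensembl release 93; Salmon is named in the submitters' processing notes. Versions of the pipeline, STAR and Salmon are not given in the sources used here. The paper gives versions for edgeR, with which its authors filtered genes, and for DESeq2, with which they tested. The values deposited by the authors are estimated counts, not normalized, and were rounded. The 10 genes and the other lists were chosen with earlier results of these data known. filterByExpr (minimum count 2, minimum total 10) left 12290 genes, and edgeR 4.0.16 (R 4.3.3) was fitted to the 6 groups with TMM scaling, without covariates. P-values were adjusted by Benjamini-Hochberg over all genes tested (threshold 0.05). SE are log2 fold changes divided by the square root of F. Of the other lists, genes called in any comparison and the 2 with the smallest p with Ox-LDL over both genotypes were named, and the 5 genes closest to the members' mean profile among those of at least 5 CPM; some results under this rule are not reported here. Media are paired by animal: the labels carry mouse identifiers, and deviations from group means correlated by 0.055 to 0.293 between libraries of a mouse (over 0.1 in 14 of 18 pairs). No replicates agreed within counting error (chi-square divided by degrees of freedom, 2.03 to 12.7). Intervals of counts cover counting error only. The fits were tested on simulated counts. Alternatives were DESeq2 1.42.0, library size scaling, filterByExpr's defaults, no filter, a replicate block and each library left out. Gene positions are from GENCODE M21 and promoters from RefSeq.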

Additional observations from a re-analysis of the deposited data

How the results depend on the processing

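Under library size scaling and the default filter (10004 genes, without *Egr1* and some other low values), all results of members kept their direction and side of the threshold (63 and 60 results). DESeq2 called *Junb* in KO cells with Ac-LDL in addition, 1 of 63, and no filter 8 of 63. The block for the mouse called 13 of 50 results in addition, all given above, and changed no other call of a member. Precision was limited by depth for *Egr1* and *Egr2*. The cause of these differences was not tested.

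With the replicate block (mouse), all genes called numbered 265 (WT, Ac-LDL), 539 (WT, Ox-LDL), 307 (KO, Ac-LDL), 882 (KO, Ox-LDL), 719 (both, Ac-LDL), 1393 (both, Ox-LDL) and 5 (difference in the response to Ac-LDL), and members 1, 4, 3, 5 and 4 in the first 5. The block for the number alone, which pairs no animals between genotypes, gave 4 genes in control and 9 with Ac-LDL between KO and WT, with *Dusp1* as 1 member with Ac-LDL (0.94, adjusted p = 0.024). Without a filter (22179 genes) the LDL comparisons gave 176, 337, 188, 491, 438 and 873 genes in the same order. Members numbered 2 in WT with Ox-LDL, 2 in KO with Ac-LDL and 2 in both with Ac-LDL. There were 3 in KO with Ox-LDL, where *Fos* was added, and 5 in both with Ox-LDL. KO against WT then gave 28, 45 and 34 genes in control, Ac-LDL and Ox-LDL, with 1 member, *Dusp1*, with Ac-LDL, the differences in response 18 and 15, and the summed counts 74 with 2 members, *Fos* and *Dusp1*. DESeq2 gave 3 and 6 genes between KO and WT in control and Ac-LDL, 1 for the difference in the response to Ac-LDL, 4 with summed counts and 1 member in KO with Ac-LDL. The 18 libraries taken as independent gave 7 genes and 1 member.

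When single libraries were left out, the genes called ranged from 40 to 118 (WT, Ac-LDL, highest without WT control mouse 1), 91 to 244 (WT, Ox-LDL, lowest without WT control mouse 2, and 109 without mouse 3), 31 to 50 (KO, Ac-LDL, under 1.5 times fewer only without KO control mouse 2 or KO mouse 1 with Ac-LDL), 149 to 191 (KO, Ox-LDL, the same only without KO control mouse 2), 155 to 403 (both, Ac-LDL, lowest without KO mouse 3 with Ac-LDL and highest without WT control mouse 1) and 514 to 808 (both, Ox-LDL). KO against WT ranged from 0 to 1 in control, 1 to 3 with Ac-LDL, 0 to 1 with Ox-LDL and 0 to 5 with summed counts. Members ranged from 0 to 2 (WT, Ox-LDL; 2 without WT control mouse 2, which added *Atf3*), 2 to 3 (KO, Ox-LDL; *Egr2* without KO control mouse 1), 1 to 2 (both, Ac-LDL; *Fos* without WT control mouse 1 or WT mouse 2 with Ac-LDL, *Atf3* without WT control mouse 2) and 4 to 5 (both, Ox-LDL). In 16 of 510 such results the sign turned, all for values that had not passed. Over both genotypes *Ier2* ranged from -0.036 to 0.163 with Ac-LDL and -0.038 to 0.142 with Ox-LDL, *Dusp1* from -0.297 to 0.011 and -0.122 to 0.180, and *Egr1* with Ox-LDL from -0.199 to 0.587. *Fosl2* in KO cells with Ox-LDL ranged from -0.044 (without KO mouse 1) to 0.137.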
